A study of Mus musculus with 16 samples.

Results

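Sensory neurons of the dorsal root ganglion signal with peptides as well as with glutamate, and the 10 genes that encode the precursors of these peptides were followed in all 16 libraries. They are Calca, Calcb, Tac1, Adcyap1, Gal, Sst, Nppb, Nts, Penk and Pdyn, 10 of the 22609 genes in each count file. They were taken by symbol, under a rule that uses no measured value, though earlier results of these data were known when they were chosen. RNA had been sequenced in bulk from dissociated cells of the L3 to L5 ganglia of male mice (8 to 16 weeks of age), sorted by flow cytometry for a fluorescent wheat germ agglutinin tracer placed in the paw. The 4 groups were mice labelled CKO after paclitaxel (PTX), fl/fl mice after PTX, CKO mice after vehicle and fl/fl mice after vehicle, with 4 libraries in each.

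Floxed Ltbr alleles were present in all 4 groups; Ltbr encodes the receptor for lymphotoxin beta. The mice labelled CKO also carried a Cre recombinase driven by Nav1.8, the sodium channel that Scn10a encodes in nociceptors, so that recombination is limited to cells with that promoter active. PTX, a microtubule-stabilising chemotherapy drug that can cause painful neuropathy, was given at 6 mg per kg in 3 injections, each 2 days apart. Vehicle libraries carry the treatment label water. The tracer was placed 16 days and the ganglia were taken 18 days after the last injection. The protocol text attached to every library describes PTX, vehicle libraries included, and the series text gives 3 samples per group where the labels give 4, so the group of each library rests on its title and treatment label. Nothing in the labels ties the libraries to separate animals or says how many were pooled, so p-values weigh differences against a spread between libraries that may be technical.

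Neuropeptides are made as long precursors that are cut by prohormone convertases in dense-core vesicles and released on stimulation, in the spinal cord and also from the peripheral endings in the skin. Calca and Calcb give the alpha and beta forms of calcitonin gene-related peptide (CGRP), a strong vasodilator, and Calca also gives calcitonin by alternative splicing. Tac1 gives substance P, Adcyap1 gives PACAP and Gal gives galanin; in the mouse these peptides mark peptidergic nociceptors, and Gal and Adcyap1 are known to increase in sensory neurons after nerve injury. Sst, Nppb and Nts (somatostatin, natriuretic peptide B and neurotensin) are known from a small class of mouse neurons that carry itch signals. Penk and Pdyn give the opioid peptides enkephalin and dynorphin.

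Libraries held 7906504 to 11668007 gene counts. The mean log2 CPM of 16 pan-neuronal markers was 8.42 to 9.71 in the 4 PTX CKO libraries, 8.72 to 9.69 in the PTX fl/fl libraries, 5.07 to 7.28 in the vehicle CKO libraries and 5.23 to 8.05 in the vehicle fl/fl libraries. Replicates 1 and 2 of each PTX group have 9/24 in their titles and lay at 9.31 to 9.71, while replicates 3 and 4 have 9/25 and lay at 8.42 to 8.81, so the PTX libraries stood apart by title date in both genotype labels. All vehicle titles bear 10/1 or 10/2, so title date and treatment cannot be told apart. Although the cells are labelled as sorted neurons, 9 neutrophil marker genes together took 0.0301 to 11.4% of the gene counts in PTX CKO, 0.528 to 10.0% in PTX fl/fl, 7.20 to 18.4% in vehicle CKO and 8.10 to 17.5% in vehicle fl/fl libraries. Satellite glia markers, 9 in all, took 0.967 to 2.88%, 0.466 to 1.62%, 0.947 to 3.21% and 2.21 to 3.86% in the same 4 groups. None of the marker genes of the neuronal, satellite glial and neutrophil lists was at 0 in a whole group. Ltbr, the targeted gene, ranged from 5.88 to 28.4 CPM in PTX CKO libraries and from 6.06 to 15.6 CPM in PTX fl/fl libraries, and from 32.3 to 98.9 CPM in vehicle CKO libraries and from 42.4 to 51.4 CPM in vehicle fl/fl libraries. The ranges of the genotype labels overlapped after each treatment, and since the counts cover the whole gene, deletion of some exons cannot be read from them.

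The reference sequence just upstream of 4 members is shown because 3 of them passed the test between PTX and vehicle below and Sst was counted almost wholly in PTX fl/fl libraries, and because Sst and the others differ at a known element. The cyclic AMP response element (CRE) is bound by CREB-family factors and was first described in the somatostatin promoter. Each line gives 250 bases before and 50 bases after the annotated start, 5′ to 3′ on the gene's strand, from RefSeq on GRCm38.p6. Capitals mark a CRE, TGACGTCA, or its core, TGACG or CGTCA on the opposite strand.
Sst (chr16:23890795-23891094, minus strand): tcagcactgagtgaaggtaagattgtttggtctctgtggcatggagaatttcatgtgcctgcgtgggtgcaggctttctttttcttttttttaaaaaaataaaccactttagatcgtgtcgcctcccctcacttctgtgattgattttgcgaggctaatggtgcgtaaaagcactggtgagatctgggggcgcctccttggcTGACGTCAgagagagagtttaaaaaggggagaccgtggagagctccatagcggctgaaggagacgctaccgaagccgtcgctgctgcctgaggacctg
Calca (chr7:114636308-114636607, minus strand): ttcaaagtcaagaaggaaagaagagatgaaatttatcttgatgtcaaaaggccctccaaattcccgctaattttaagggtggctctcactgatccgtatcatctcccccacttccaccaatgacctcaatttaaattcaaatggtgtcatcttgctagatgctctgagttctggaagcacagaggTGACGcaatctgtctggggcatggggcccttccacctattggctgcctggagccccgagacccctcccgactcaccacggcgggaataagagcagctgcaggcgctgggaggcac
Tac1 (chr6:7554811-7555110, plus strand): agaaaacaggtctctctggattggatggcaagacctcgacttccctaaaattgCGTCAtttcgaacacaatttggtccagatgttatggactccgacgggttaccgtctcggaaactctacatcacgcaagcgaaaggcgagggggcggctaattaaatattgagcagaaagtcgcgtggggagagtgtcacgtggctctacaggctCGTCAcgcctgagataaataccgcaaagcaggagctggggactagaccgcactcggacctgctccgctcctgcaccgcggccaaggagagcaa
Adcyap1 (chr17:93198767-93199066, plus strand): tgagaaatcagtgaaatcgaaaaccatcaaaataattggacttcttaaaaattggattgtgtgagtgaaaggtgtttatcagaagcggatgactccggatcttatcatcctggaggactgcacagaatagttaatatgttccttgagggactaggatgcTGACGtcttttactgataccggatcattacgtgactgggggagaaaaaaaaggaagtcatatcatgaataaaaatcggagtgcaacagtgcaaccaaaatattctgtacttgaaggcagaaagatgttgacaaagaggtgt

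RefSeq had such a window for 8 of the 10 members, and Calcb and Penk had none in the table used. The whole CRE, which reads alike on both strands and so holds a core on each, was in 588 of 32851 mouse promoter windows of the same length (1.79%), and among the members in that of Sst alone. A core was in 20.8% of all windows and in those of 6 members, Calca, Tac1, Adcyap1, Gal, Sst and Nts. A match of letters is a description of the sequence and not of binding.

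Per kilobase of transcript the members spanned a wide range. In PTX fl/fl libraries Calca had a mean level of 4017 CPM per kb, Tac1 1141, Calcb 335, Gal 162 and Adcyap1 158 CPM per kb. The other members were far lower in the same libraries, with means of 21.4 CPM per kb for Nppb, 13.2 for Penk, 8.53 for Sst and 2.83 for Nts. Their SDs over the 4 libraries, 16.2, 6.07, 4.56 and 3.88 CPM per kb, overlapped between each neighbouring pair of these low members. Gal and Adcyap1 likewise did not differ beyond their SDs of 42.3 and 41.1 CPM per kb. Calca alone made up 54.2 to 70.2% of the counts of the 5 peptidergic precursors in the PTX libraries of both genotype labels, and 51.0 to 73.6% in the vehicle libraries.

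The effect of PTX on the peptide precursors was asked first, in each genotype label. On the scale of all genes, the 5 peptidergic precursors were higher in every PTX library than in every vehicle library of the same genotype label. In mice labelled CKO, 2 of them passed the test, Adcyap1 and Calca, and in fl/fl mice 3 did, Adcyap1, Calca and Tac1. All of these were higher after PTX. Sst also lay under the threshold in fl/fl, but it met the filter on low counts only through the PTX fl/fl libraries, and it is therefore described by its counts and not as a call. Levels are given as CPM, read counts scaled to the effective library size. An edgeR adjusted p is the two-sided quasi-likelihood p after Benjamini-Hochberg correction across the 14200 genes tested, with 0.05 as the threshold. Of these genes, 2.58% passed between PTX and vehicle in CKO and 4.94% in fl/fl; 2.22% and 3.18% passed as higher after PTX. Of the members, 9 could be tested, since Pdyn had no count. In bulk samples, fewer cells of a type and less RNA per cell cannot be told apart, and this holds for every level below.

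Calca had 4582, 5768, 2966 and 3058 CPM in the PTX CKO libraries, against 664, 298, 1362 and 785 CPM in the vehicle CKO libraries. In fl/fl mice it had 4792, 5349, 3066 and 2764 CPM after PTX, against 283, 449, 1165 and 1218 CPM after vehicle. Every PTX library was thus above every vehicle library, and within each PTX group the 2 libraries of the earlier title date were the higher ones. Within each vehicle group the 2 libraries of the earlier title date were instead the lower ones. The log2 fold change was 2.40 ± 0.50 in CKO (SE, n = 4 libraries per group; edgeR adjusted p = 0.0204). In fl/fl it was 2.36 ± 0.50, with an edgeR adjusted p of 0.0138. Without the 9/24 libraries these became 1.94 in CKO (edgeR adjusted p = 0.406) and 1.85 in fl/fl (edgeR adjusted p = 0.293), and without the 10/1 libraries the fl/fl value became 1.58 (edgeR adjusted p = 0.0759). The CKO call was also lost without replicate 1 or 2 of either CKO group, with edgeR adjusted p of 0.0540 to 0.0836.

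Calcb, which lies on chromosome 7 like Calca, had 355, 477, 125 and 216 CPM in PTX CKO libraries, against 10.3, 51.1, 33.5 and 65.8 CPM in vehicle CKO libraries. The fl/fl libraries gave 460, 407, 194 and 228 CPM after PTX, against 6.00, 31.7, 149 and 101 CPM after vehicle. The groups did not overlap, but the vehicle libraries spread more than those of Calca. The log2 fold change was 2.87 ± 0.76 in CKO (edgeR adjusted p = 0.0547) and 2.16 ± 0.74 in fl/fl (edgeR adjusted p = 0.111), and neither passed the threshold. Calcb had 4.22 to 9.59 counts per 100 counts of Calca in the 8 PTX libraries, and 1.55 to 17.1 in the 8 vehicle libraries.

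The pair was checked for shared reads because both encode CGRP and reads were 50 bases long. The annotated transcripts of Calca and Calcb share 12 stretches of 50 bases, which are 0.715% of the 1678 in Calca and 0.952% of the 1260 in Calcb. They lie in 1 run of 61 bases, shown because it is the longest that both coding sequences hold, and which covers the start of the mature CGRP peptide. It is given from GRCm38 as transcribed from the minus strand of Calca. There its ends lie at positions 114632541 and 114634469 of chromosome 7, and an intron splits the run between them.
Calca and Calcb: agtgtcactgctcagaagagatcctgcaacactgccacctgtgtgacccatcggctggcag

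Tac1 had 1159, 1858, 1340 and 1229 CPM in PTX CKO libraries, against 314, 95.6, 430 and 403 CPM in vehicle CKO libraries. In fl/fl mice the values were 1430, 1682, 1278 and 1224 CPM after PTX, against 52.1, 211, 714 and 312 CPM after vehicle. The PTX libraries were close to one another, and the vehicle libraries spread widely below them. The log2 fold change of 2.12 ± 0.57 in fl/fl passed (edgeR adjusted p = 0.0403), while 2.17 ± 0.57 in CKO fell just short (edgeR adjusted p = 0.0519). The fl/fl call was lost without the 9/24, 9/25 or 10/1 libraries, and without replicate 1, 2 or 3 of PTX fl/fl or replicate 1, 2 or 4 of vehicle fl/fl. With libraries scaled to total gene counts the edgeR adjusted p was 0.0550 in fl/fl and 0.0344 in CKO. Over the 8 repeats that left out 1 library, the edgeR adjusted p was 0.0178 to 0.120.

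Adcyap1 had 360, 451, 655 and 413 CPM in PTX CKO libraries, against 84.3, 88.6, 172 and 95.2 CPM in vehicle CKO libraries. The fl/fl libraries gave 369, 535, 526 and 710 CPM after PTX, against 37.2, 53.7, 164 and 99.4 CPM after vehicle. Adcyap1 had the smallest adjusted p of the members in both genotype labels. Its log2 fold change was 2.09 ± 0.41 in CKO (edgeR adjusted p = 0.0177) and 2.59 ± 0.42 in fl/fl (edgeR adjusted p = 0.0058). Without the 9/24 libraries it was 2.27 in CKO (edgeR adjusted p = 0.279) and 2.75 in fl/fl (edgeR adjusted p = 0.112), and without the 10/1 libraries 1.89 in fl/fl (edgeR adjusted p = 0.0730). The CKO call was also lost without replicate 2 of either CKO group (edgeR adjusted p = 0.0553 and 0.0861).

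Gal had 72.7, 101, 123 and 138 CPM in PTX CKO libraries, against 13.7, 17.6, 49.2 and 53.4 CPM in vehicle CKO libraries. In fl/fl mice it had 102, 98.6, 138 and 169 CPM after PTX, against 6.11, 47.4, 90.5 and 39.0 CPM after vehicle. The groups did not overlap, though the highest fl/fl vehicle library came near the lowest PTX library. The log2 fold change was 1.70 ± 0.59 in CKO (edgeR adjusted p = 0.128) and 1.48 ± 0.59 in fl/fl (edgeR adjusted p = 0.170), which did not pass. With all 5 peptidergic precursors counted, the median log2 fold change was 2.17 in CKO and 2.16 in fl/fl, beside 0.02 and -0.01 over all genes tested. Groups that did not overlap with PTX higher were found for 8.91% of all genes in CKO and 11% in fl/fl.

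**Figure D1:**
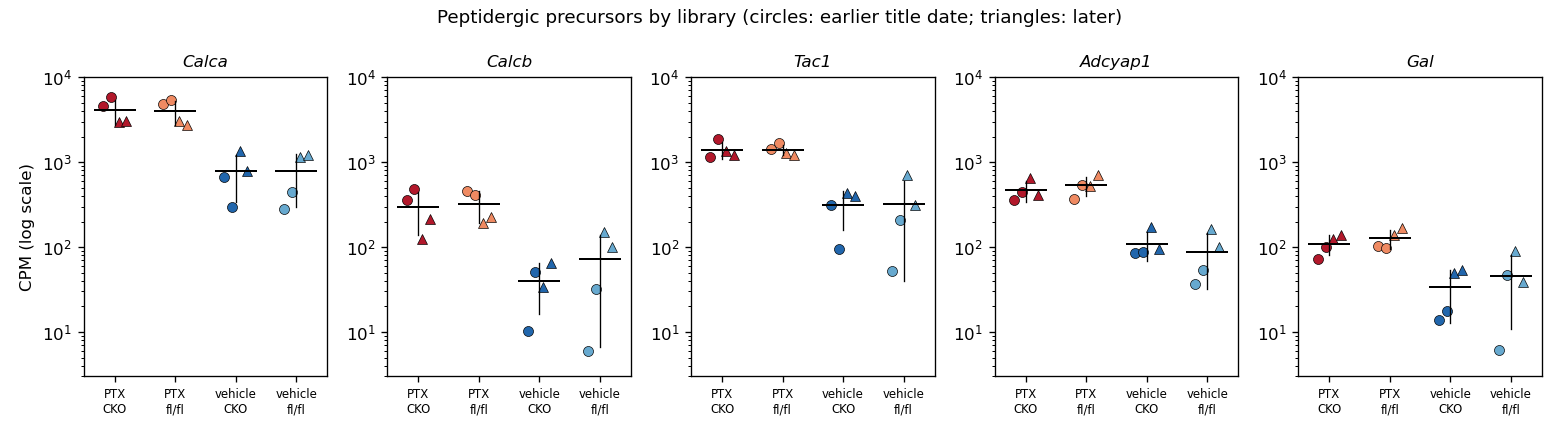
CPM of the 5 peptidergic precursors on a log axis, by group, with 4 libraries per group (circles, earlier title date; triangles, later title date). Horizontal lines are means and vertical lines are 1 SD. Each PTX group lies above the vehicle group of the same genotype label for each gene, as for Calca with a mean of 4093 CPM in PTX CKO and 777 CPM in vehicle CKO libraries, and Calca and Calcb are higher at the earlier PTX date.

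Pan-neuronal markers moved with these precursors. Of the 16 markers, 8 passed as higher after PTX in CKO and 11 in fl/fl, with median log2 fold changes of 2.28 and 2.23. Myelinating Schwann cell markers moved the other way, with 5 of 7 called lower after PTX in each genotype label. So did satellite glia markers, with 1 of 9 called lower in CKO and 5 of 9 in fl/fl. Over all 14200 genes, 315 passed as higher and 51 as lower in CKO, and 451 as higher and 250 as lower in fl/fl. Of 9 neutrophil markers 0 passed in edgeR, at an unadjusted p under 0.05 or in DESeq2, with medians of -1.66 and -1.95. The part of these other cells in the peptide results was not tested.

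When libraries were scaled so that the 16 neuronal markers had equal mean counts, no PTX difference of a peptidergic precursor passed the threshold. Calca gave a log2 fold change of -0.068 in CKO (edgeR adjusted p = 0.931) and -0.055 in fl/fl (edgeR adjusted p = 0.947) on that scale. Adcyap1 gave -0.43 (edgeR adjusted p = 0.587) and 0.29 (edgeR adjusted p = 0.717). Calcb gave -0.15 and -0.10, Tac1 -0.10 and -0.29, and Gal -0.58 and -1.08, in CKO and fl/fl. Signs thus differed from those on the scale of all genes, except for Adcyap1 in fl/fl, but with no value past the threshold they give no direction. The scaling moved the median of all genes to -2.64 in CKO and -2.75 in fl/fl, so that values on it are relative to neuronal markers and not to the whole library.

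**Figure D2:**
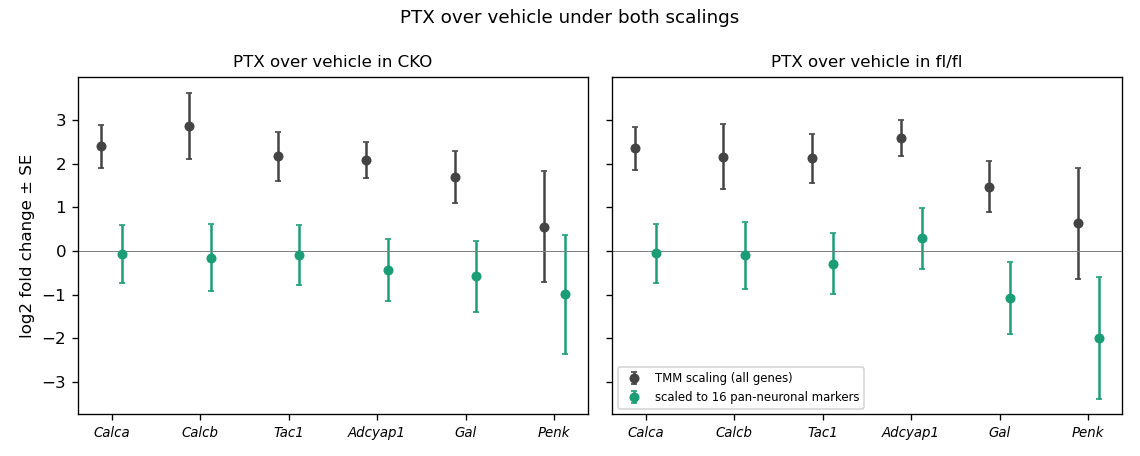
Log2 fold changes of PTX over vehicle with their SE (bars) for the 5 peptidergic precursors and Penk, in CKO (left) and fl/fl (right), scaled to all genes by TMM (grey) or to 16 pan-neuronal markers (green). Grey points of the peptidergic genes lie between 1.48 and 2.87 and green points between -1.08 and 0.29.

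The level of Calca per neuronal marker was also steady from library to library after PTX. Its log2 ratio to the marker mean was 2.97 ± 0.18 in PTX CKO, 2.70 ± 0.11 in PTX fl/fl, 2.90 ± 0.74 in vehicle CKO and 2.59 ± 0.79 in vehicle fl/fl libraries (SD, n = 4 each). Thus the 4 group means lay within the spread of the vehicle libraries. Gal and Adcyap1 differed by title date on this scale. The Gal ratio was -3.12, -3.04, -1.52 and -1.31 in PTX CKO libraries and -3.01, -2.99, -1.69 and -1.32 in PTX fl/fl libraries, in each group with the 9/24 libraries first and lower. The Adcyap1 ratio was -0.81, -0.89, 0.90 and 0.27 in PTX CKO libraries and -1.16, -0.55, 0.23 and 0.75 in PTX fl/fl libraries, again lower on 9/24. Both genotype labels showed the same split, which follows the date and the neuronal marker level together. The marker level is itself the denominator of each ratio, so ratio and level are not independent.

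**Figure D3:**
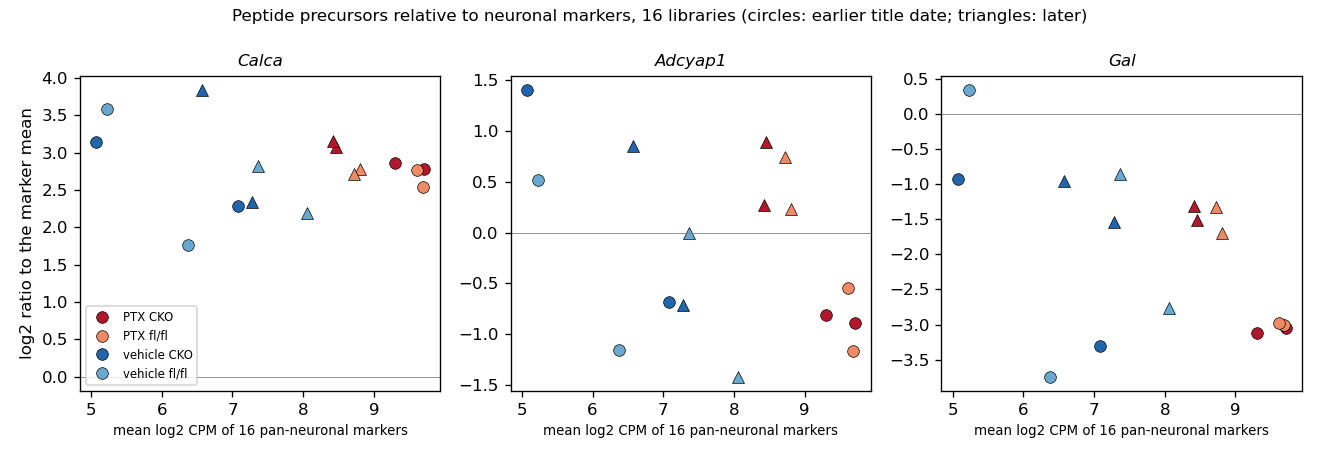
Log2 ratio of Calca, Adcyap1 and Gal to the mean of 16 pan-neuronal markers (vertical axes) against that mean in log2 CPM (horizontal axes), 1 point per library, coloured by group, with circles for the earlier and triangles for the later title date. The Calca ratio of the PTX libraries stays between 2.54 and 3.16, while the PTX circles of Gal (-3.12 to -2.99) lie below its PTX triangles (-1.69 to -1.31).

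The pruriceptive peptides were low, and most of the counts of Sst and Nppb came from PTX fl/fl libraries. Somatostatin (Sst) had counts of 0, 4, 0 and 0 in PTX CKO libraries and 108, 17, 62 and 77 in PTX fl/fl libraries, that is 0.379 CPM in the one CKO library and 8.96, 1.49, 6.33 and 7.82 CPM in the fl/fl libraries. It had 0, 0, 1 and 0 counts in vehicle CKO libraries and none in the 4 vehicle fl/fl libraries. Against the floor of 3 counts over the vehicle group, Sst was at least 85.6-fold higher in the PTX libraries of fl/fl mice (264 counts against 0). Since the PTX fl/fl libraries alone brought Sst through the filter on low counts, its edgeR adjusted p of 0.0368 there supports nothing. With no such filter it was 0.0491, and over the alternatives run it was 0.00165 (with DESeq2) to 0.301 (without the 9/24 libraries). In CKO the ratio of 4 counts to 1 was 3.65, with a 95% counting interval of 0.361 to 180 (edgeR adjusted p = 0.703). Counting intervals and floors cover counting error only.

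Nppb, whose product is required in mice for itch transmission to the spinal cord, had counts of 14, 15, 13 and 0 in PTX CKO libraries, against none in the 4 vehicle CKO libraries. In fl/fl mice it had 307, 57, 290 and 66 counts after PTX (25.5, 5.01, 29.6 and 6.70 CPM), against 0, 0, 43 and 1 after vehicle (3.54 CPM in the third library). The PTX fl/fl libraries were all above the vehicle ones, but 1 vehicle library held nearly all of that group's counts. Nppb was at least 12.8-fold higher after PTX in CKO (42 counts against 0), with an edgeR adjusted p of 0.142. In fl/fl the log2 fold change was 4.17 ± 1.90 (edgeR adjusted p = 0.245), and without replicate 3 of vehicle fl/fl it was 8.59 (edgeR adjusted p = 0.0521). None of these passed.

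Nts was the least regular member. It had 54, 3, 0 and 0 counts in PTX CKO libraries, against 0, 132, 0 and 0 in vehicle CKO libraries. In fl/fl mice it had 128, 11, 25 and 0 counts after PTX, against none after vehicle. A single vehicle CKO library thus held more counts than any PTX library. The log2 fold change in CKO was -1.37 ± 2.45 (edgeR adjusted p = 0.809), and it turned with the libraries kept. In fl/fl Nts was at least 53.1-fold higher after PTX (164 counts against 0) but did not pass (edgeR adjusted p = 0.184).

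Of the opioid precursors, Penk was low and variable, with 1.77, 18.4, 27.4 and 20.1 CPM in PTX CKO libraries, against 22.6, 0, 0.511 and 22.9 CPM in vehicle CKO libraries. The fl/fl libraries gave 13.4, 27.8, 25.4 and 9.95 CPM after PTX, against 28.8, 3.04, 15.2 and 2.16 CPM after vehicle. The groups overlapped throughout. The log2 fold change was 0.55 ± 1.27 in CKO (edgeR adjusted p = 0.859) and 0.64 ± 1.28 in fl/fl (edgeR adjusted p = 0.842). A further transcript, A830012C17Rik, is annotated on the opposite strand across Penk, and since the strand setting of the counting is not given in the sources used here, reads of the pair cannot be told apart. Pdyn had 0 counts in all 16 libraries, which allows a level of up to 0.0188 CPM over all of them, and up to 0.247 to 0.383 CPM in a single library.

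**Figure D4:**
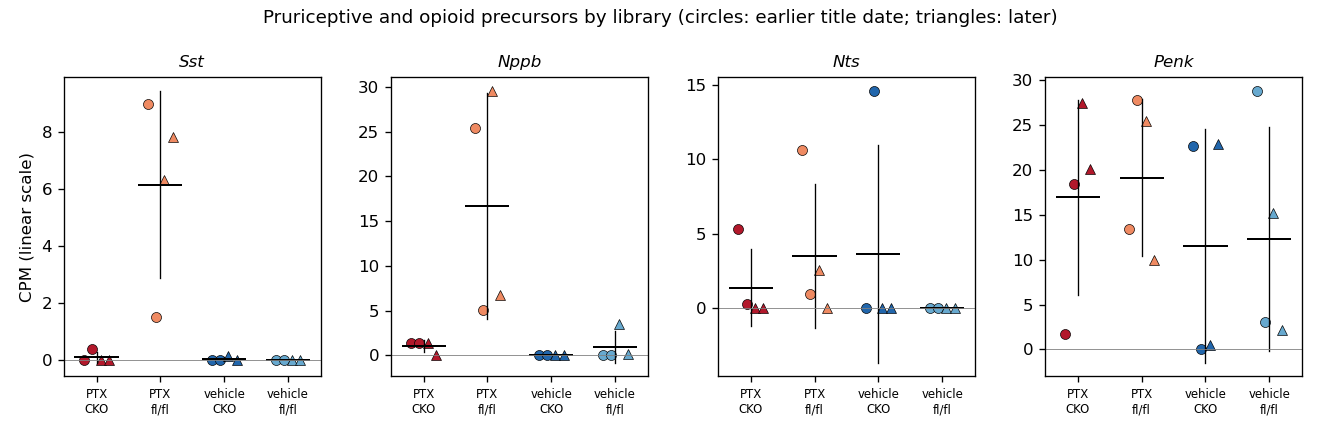
CPM of Sst, Nppb, Nts and Penk on linear axes, by group, with 4 libraries per group (circles, earlier title date; triangles, later). Horizontal lines are means and vertical lines are 1 SD, which runs below 0 where 1 library holds most counts. Sst and Nppb have their highest means, 6.15 and 16.7 CPM, in PTX fl/fl libraries, whereas Nts has 1 high vehicle CKO library (14.6 CPM) and Penk overlaps in all groups.

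The next question was whether deletion under the Nav1.8 Cre altered the peptide precursors. After PTX, Sst and Nppb were lower in every library labelled CKO than in every fl/fl library, while the 5 peptidergic precursors and Penk overlapped. No member passed the test, nor did any of the 14200 genes in edgeR (0%). At an unadjusted edgeR p under 0.05 there were 1 member, Sst, and 1.87% of all genes, and DESeq2 called 0 members and 18 genes. Sst met the filter through PTX fl/fl alone, so neither this p nor its lack of overlap supports anything. Sst had a log2 fold change of -5.82 ± 1.97 for CKO against fl/fl (edgeR adjusted p = 1). All 4 CKO counts came from replicate 2, and without it the fitted value was -8.93, which against a group at 0 is no bound. Nppb had -3.99 ± 1.89 (edgeR adjusted p = 1). Groups that did not overlap with CKO lower were found for 1.37% of all genes. By title date, Nppb had 14 and 15 counts in CKO against 307 and 57 in fl/fl on 9/24. On 9/25 it had 13 and 0 against 290 and 66. Since its groups did not overlap, the order within each date was given already and adds no support. Nts followed with -1.33 ± 2.45 (edgeR adjusted p = 1), and its groups overlapped. The peptidergic precursors and Penk lay between -0.23 and 0.04, with SEs of 0.40 to 1.27.

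The neurons that carry Sst and Nppb are known in the mouse by the receptors Il31ra and Osmr, which together bind the itch cytokine interleukin 31, by the leukotriene receptor Cysltr2 and by the serotonin receptor Htr1f. Il31ra had 12.6, 5.31, 3.61 and 0.834 CPM in PTX CKO libraries and 49.7, 13.4, 90.5 and 0 CPM in PTX fl/fl libraries. Osmr had 77.0, 126, 53.8 and 22.8 CPM in PTX CKO libraries and 239, 184, 186 and 86.5 CPM in PTX fl/fl libraries. In both genes, replicate 4 was the one fl/fl library that did not lie above all CKO libraries. For CKO against fl/fl after PTX, Osmr gave a log2 fold change of -1.31 ± 0.66 and Il31ra one of -2.78 ± 1.61, each with an edgeR adjusted p of 1. The median over the 7 markers of this list was -1.31, beside -0.04 over all genes tested, and 0 of 7 passed in edgeR, at an unadjusted p under 0.05 or in DESeq2. Between PTX and vehicle, 1 of 7 passed in fl/fl (Osmr, 2.77 ± 0.69, edgeR adjusted p = 0.0305), with a list median of 2.77. In CKO 0 of 7 passed (median 0.88). DESeq2 called Il31ra and Osmr in CKO, beside 1439 of 14689 genes, and Cysltr2, Il31ra and Osmr in fl/fl, beside 1638 of 14437 genes. An unadjusted edgeR p under 0.05 was reached by 2 of the list in CKO and 3 in fl/fl. The share of all genes at that p is not given here, so these counts are no result about the list. Il31ra, Osmr, Htr1f and Trpc6 had higher means after PTX in both genotype labels. Cysltr2 did so in fl/fl alone, with 2.83 CPM after PTX and 5.41 CPM after vehicle in CKO. Ptafr had lower means after PTX, 22.1 against 99.0 CPM in CKO and 26.8 against 60.6 CPM in fl/fl. Jak1 had 220 against 232 CPM in CKO and 283 against 236 CPM in fl/fl. Replicate 4 of PTX fl/fl held 77 counts of Sst and 66 of Nppb but none of Il31ra or Nts.

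**Figure D5:**
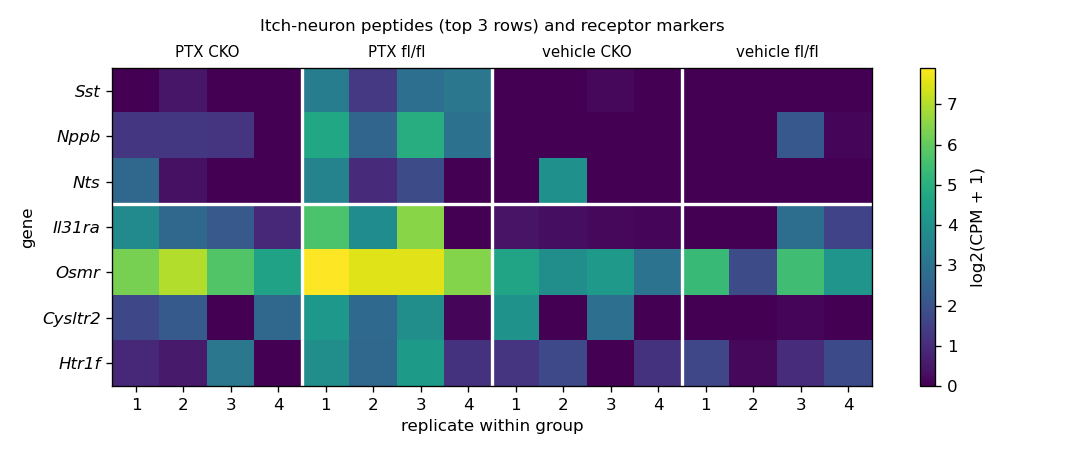
Log2(CPM + 1) of Sst, Nppb and Nts (upper rows) and of 4 receptor markers of itch neurons (lower rows) in the 16 libraries, in columns by group and replicate, on 1 colour scale starting at 0. The Sst and Nppb rows are brightest in PTX fl/fl, where Nppb reaches 29.6 CPM, while Nts is brightest in replicate 2 of vehicle CKO (14.6 CPM). Il31ra is at 0 in replicate 4 of PTX fl/fl although Osmr has 86.5 CPM there. Jak1, Ptafr and Trpc6 of the same marker list are not shown.

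After vehicle, the members could hardly be compared between genotype labels for the pruriceptive peptides, which were near 0. Nppb had none in CKO against 44 counts in fl/fl, at least 12.4-fold lower (edgeR adjusted p = 0.958), of which 43 came from 1 library. Nts had 132 against 0, at least 52.1-fold higher in CKO (edgeR adjusted p = 0.958), again from 1 library. Sst had 1 count against 0, for which no fold is given. The remaining members had log2 fold changes of -0.84 to 0.31. No member passed in edgeR, beside 3 of all genes (0.0211%). At an unadjusted edgeR p under 0.05 there were 2 members and 4.61% of all genes. DESeq2 called Nts alone among the members, beside 107 of 15903 genes.

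Whether the PTX effect differed between genotype labels was tested as an interaction. No member passed in edgeR, beside 1 of all genes (0.00704%). At an unadjusted edgeR p under 0.05 there were 2 members and 3.35% of all genes. DESeq2 called Nts alone among the members, beside 60 of 15562 genes. The smallest unadjusted edgeR p were 0.0181 for Sst, 0.0299 for Nts and 0.242 for Nppb, each with an edgeR adjusted p of 1. For the peptidergic precursors and Penk the interaction lay between -0.50 for Adcyap1 and 0.70 for Calcb, with SEs of 0.56 and 1.01. For Sst, which met the filter through PTX fl/fl alone, these p support nothing.

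Other genes of the peptide pathway were read from lists. Of 18 genes for peptide processing and dense-core vesicles, 4 rose after PTX in each genotype label and none fell, where 2.22% of all genes passed as higher in CKO and 3.18% in fl/fl. The median log2 fold changes of the list were 1.81 in CKO and 1.62 in fl/fl, beside 0.02 and -0.01 over all genes tested. Pan-neuronal markers had medians of 2.28 in CKO and 2.23 in fl/fl, with 8 and 11 of 16 called higher. Whether the list rose beyond the neuronal markers was not tested. Without the 9/24 libraries, 0 of 14702 genes passed in CKO and 4 in fl/fl. In CKO these were led by Syt4, a synaptotagmin of dense-core vesicles (3.08 ± 0.59, edgeR adjusted p = 0.0162). Scg2, a granin packed into those vesicles, followed (2.37 ± 0.49, edgeR adjusted p = 0.0211), with Scg5, the chaperone of convertase Pcsk2 (1.89 ± 0.41, edgeR adjusted p = 0.0255), and Pcsk1n, an inhibitor of convertase Pcsk1 (2.20 ± 0.49, edgeR adjusted p = 0.0263). In fl/fl they were Scg2 (2.16 ± 0.49, edgeR adjusted p = 0.0195), Syt4 (2.31 ± 0.58, edgeR adjusted p = 0.0303), Pcsk1n (1.91 ± 0.48, edgeR adjusted p = 0.0325) and Pcsk2 itself (2.61 ± 0.69, edgeR adjusted p = 0.0383). Scg2 averaged 933 ± 162 CPM in PTX CKO and 984 ± 110 CPM in PTX fl/fl libraries, against 181 ± 87.6 CPM in vehicle CKO and 221 ± 167 CPM in vehicle fl/fl libraries (SD, n = 4 each).

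Of 17 other neuropeptide precursors, 6 could be tested and 1 rose after PTX in each genotype label. This was Nmb, the precursor of neuromedin B, with 2.67 ± 0.56 in CKO (edgeR adjusted p = 0.0206) and 2.36 ± 0.55 in fl/fl (edgeR adjusted p = 0.0215). It ranged from 68.0 to 263 CPM in PTX CKO libraries, against 15.7 to 38.0 CPM in vehicle CKO libraries. In fl/fl mice it ranged from 88.6 to 241 CPM after PTX, against 13.8 to 51.5 CPM after vehicle. As for Calca, the earlier PTX date was the higher one. Whether Nmb rose beyond the neuronal markers was not tested. The median of the list was 0.94 in CKO and 0.83 in fl/fl. Vip, Tac2 and Grp had no count in any library.

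Of 25 receptors for the member peptides, 17 could be tested and none passed in edgeR, with medians of 1.19 in CKO and 0.89 in fl/fl. An unadjusted edgeR p under 0.05 was reached by 4 in each genotype label. The share of all genes at that p is not given here, so the 4 are no result about receptors. DESeq2 called 2 in CKO and 0 in fl/fl, beside 1439 of 14689 genes in CKO and 1638 of 14437 in fl/fl. The most abundant were Sort1, the neurotensin-binding sortilin, and Crcp, a component of CGRP receptor signalling. Sort1 had -0.80 ± 0.53 in CKO (edgeR adjusted p = 0.435) and -1.36 ± 0.54 in fl/fl (edgeR adjusted p = 0.171). Crcp had 1.00 ± 0.45 in CKO (edgeR adjusted p = 0.231) and 0.89 ± 0.45 in fl/fl (edgeR adjusted p = 0.296). In the genotype comparisons and the interaction, none of these 3 lists had a gene called by edgeR or DESeq2, and each had 0 to 2 genes at an unadjusted edgeR p under 0.05. The PTX medians of these 3 lists were the same when genes at 0 in a group were set to their bound.

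Each member was also matched to the genes whose pattern over the 16 libraries was most like its own. The measure was the mean absolute difference of centred log2 CPM, for which 0 is an identical pattern. Calca was nearest to Prph (0.29), a neuronal intermediate filament also used among the pan-neuronal markers, then to Pirt and Acot7 (both 0.29). Tac1 was nearest to Scg2 (0.24), then Gfra3 (0.25), a receptor subunit for artemin, and Nrsn1 (0.29). Calcb was nearest to Syt4 (0.41), Gnao1 (0.44) and Samd14 (0.46). For Adcyap1 these were Aqp1 (0.30), Popdc3 (0.34) and Nrsn1 (0.35), and for Gal Chd3 (0.45), Gfra3 (0.46) and Scg2 (0.46). Nppb was nearest to Pou4f2 (0.86), a sensory transcription factor, then to Syt16 (1.23) and Il31ra (1.24). The median over all genes compared was 2.75 for Nppb and 1.34 to 1.71 for the peptidergic precursors. Sst had no near neighbour, with Rims2 (1.38), Dgkh (1.39) and Ap3b2 (1.41) against a median of 2.29, nor had Nts, with Zfp945 (1.66), Nop14 (1.67) and Lix1 (1.69) against 2.47. Penk was nearest to Dcaf4 (0.85), Cyb5d2 (0.92) and Hap1 (0.99). Within a library all genes share its depth and neuronal marker level, which differed between libraries, so likeness is a description only.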

How the data were processed

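Counts per gene of 16 libraries of sorted dorsal root ganglion cells were used, 4 per group. Per the labels' protocols, a stranded TruSeq poly(A) preparation from about 500 ng of RNA was sequenced from 1 end over 50 bases. The authors, per the submitters' processing notes, used bcl2fastq, TopHat2 and HTSeq with mm9, with no versions stated. The authors deposited raw counts, for 22609 genes and 5 HTSeq summary lines per file. Gene counts were 32.9 to 43.5% of all counted alignments, 39.5 to 44.2% were not unique and 13.7 to 25.4% fell on no feature. Alignments that are not unique are not counted, which can lower genes with close copies.

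Genes were filtered with filterByExpr (14200 kept), given TMM factors, and fitted with edgeR 4.0.16 in R 4.3.3, with all 16 libraries in 1 quasi-likelihood model of 4 group means (12 residual degrees of freedom, biological coefficient of variation 0.939). The SE is the fold change over the root of its F statistic. The fit was tested on simulated data. Comparisons were PTX against vehicle per genotype label, CKO against fl/fl per treatment, and their interaction. A group at 0 was set to a floor of 3 counts. Alternatives were RLE scaling, total gene counts, pan-neuronal marker scaling, no filter, DESeq2 1.42.0, blocks for replicate number or title date, leaving out each date and leaving out each library.

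Named genes were all members for PTX, the 3 members with the smallest p otherwise, up to 3 called genes of a list or else its 2 most abundant, and for each member the 3 genes of at least 5 CPM most like it. Genes beyond this, such as the fourth called processing gene, precursors with no count and itch receptor markers, were chosen after their values were seen. The members and lists were chosen with earlier results of these data known. Libraries with the same replicate number deviated together in the genotype comparison under PTX (correlations of 0.35, 0.37, 0.36 and 0.21), where a replicate block changed no call. Such libraries also share a title date, and the part of the date in these correlations was not tested. No 2 libraries of a group were alike within counting error (lowest chi-square per degree of freedom 19.5 of 24 pairs). Lengths are of the longest protein-coding GENCODE M21 transcript on GRCm38, and promoters are from RefSeq on GRCm38.p6, while the counts rest on mm9.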

Additional observations from a re-analysis of the deposited data

Results flagged for a closer look

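Within 33 sets of 4 libraries, 1 for each counted member and group, 7 held a library far from the other 3 (gap over range above 0.829, the critical value at 95%). Chance flags about 1 in 20 groups, and sets in which most libraries are at 0 are flagged by a single library with counts.

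Adcyap1 was at 172 CPM in replicate 3 of vehicle CKO, above the 84.3 to 95.2 CPM of the others. Sst was at 0.379 CPM in replicate 2 of PTX CKO and at 0.128 CPM in replicate 3 of vehicle CKO, the only libraries of those groups with a count. Nppb was at 0 CPM in replicate 4 of PTX CKO, where the others had 1.34 to 1.42 CPM, and at 3.54 CPM in replicate 3 of vehicle fl/fl. Nts was at 5.31 CPM in replicate 1 of PTX CKO. It was at 14.6 CPM in replicate 2 of vehicle CKO, the highest level of Nts in any library, while the other vehicle libraries of both genotype labels had no count of it.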

How the results depend on the processing

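Without a block, 2 members were under the threshold between PTX and vehicle in CKO and 4 in fl/fl, Sst included. In CKO the count was 4 with total gene counts, 5 with DESeq2, 0 with neuronal scaling, 0 without the 9/24 libraries, 4 without the 10/1 libraries and 0 to 3 with each library left out (0 without replicate 2 of either group, 1 without replicate 1 of either). In fl/fl it was 1 with neuronal scaling (Sst), 0 without 9/24, 0 without 10/1 and 2 to 4 with each library left out. Other settings gave counts within 1.5 times. DESeq2 called 1 member, Nts, in the vehicle genotype comparison and 1, Nts, in the interaction, where 0 were called otherwise. The cause was not tested. With the replicate number as a block, 1 member was called in CKO (Adcyap1) and 2 in fl/fl (Adcyap1 and Calca), but numbers did not pair these libraries (correlations of -0.05 to 0.07 in CKO and -0.18 to -0.13 in fl/fl), and 0 in both genotype comparisons and the interaction.

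Neuronal scaling changed signs, with none past the threshold, to -0.43 (Adcyap1), -0.068 (Calca), -0.15 (Calcb), -0.58 (Gal), -0.10 (Tac1), -0.99 (Penk) and -1.09 (Sst) in CKO, and to -0.055 (Calca), -0.10 (Calcb), -1.08 (Gal), -0.29 (Tac1) and -1.997 (Penk) in fl/fl. For PTX against vehicle in CKO, Nts reversed to 6.82 without 10/1 and ran from -5.06 to 6.72 with each library left out, and Penk reversed to -0.19 without 9/25. Nts ran from -5.02 to 0.25 in the genotype comparison under PTX.

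Over all genes, 366 calls in CKO and 701 in fl/fl became 1439 and 1638 with DESeq2, 7409 and 7836 with neuronal scaling, 126 and 361 with the replicate block, 0 and 4 without 9/24, and 2077 and 1923 without 9/25. Calls in fl/fl fell to 47 without 10/1, and those in CKO were 30 without replicate 2 of PTX CKO. Depth limits Sst, Nppb, Nts and Pdyn, which had 3 counts or fewer in whole groups.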
